A study of Mus musculus with 6 samples.

Results

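CD8+ T cells that had been primed with antigen and IL-2 were compared with naive CD8+ T cells, to ask which genes priming switched on or off and which genes of the naive cell it left at their level. The cells came from the spleens of female C57BL/6 mice carrying the Pmel-1 transgene, a T cell receptor that recognises the melanoma antigen gp100 on CD8+ T cells. Naive cells were collected fresh and sorted as CD8+ Thy1.1+ cells. IL-2 cells received gp100 for 4 days and IL-2 for 6 days in culture, and no sort after culture is named. Members were chosen by label: the 2 naive and the 2 IL-2 arrays, 4 of the 6 arrays of the series. The other 2 arrays held Pmel-1 cells primed with gp100 for 4 days and given IL-12 for 6 days. They shared the fit and are used here only where the IL-2 cells are set beside them. Because naive cells were fresh and IL-2 cells cultured, antigen, IL-2, time in culture and the sort cannot be told apart. Whether the 2 arrays of each kind hold cells of different mice is not given in the sources used here, so p-values may reflect only technical spread.

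Naive CD8+ T cells are small resting cells that circulate through spleen and lymph nodes, held there by chemokine receptors and by transcription factors of the Klf, Foxo and Tcf families. Antigen makes such a cell grow, divide and build granules that hold granzymes. IL-2 then acts through a receptor whose alpha chain is made after activation, and through the kinases Jak1 and Jak3, to STAT5, which drives survival, growth and effector genes together with its own feedback inhibitors of the Socs and Cish group.

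Values are log2 RMA signals of 1 probe set per gene, so a difference of 1 is a 2-fold change of signal. Levels of different genes are not set against each other, since probe sets differ in brightness. Each difference is IL-2 minus naive, ± its standard error from limma, n = 2 arrays per group. A gene "rose" or "fell" where the limma adjusted p was under 0.05. A gene counted as within 1.5-fold where the 95% interval of its difference lay inside 1.5-fold in either direction.

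Markers of the labelled cell type were bright on all 4 arrays. Cd8b1, the beta chain of the CD8 coreceptor, read 13.17 and 13.20 on the naive and 13.01 and 12.98 on the IL-2 arrays, a difference of -0.19 ± 0.10 (limma adjusted p = 0.148). Cd3e, a signalling chain of the receptor complex, read 13.06 and 13.31 and then 13.05 and 13.10, and Cd3g read 13.13 and 13.24 and then 13.24 and 13.29. Cd8a, the alpha chain, fell slightly, from 12.61 and 12.66 to 12.26 and 12.36 (-0.32 ± 0.10; limma adjusted p = 0.0285). Its call was lost without any 1 of the IL-2 and IL-12 arrays, with arrays centred on their median, and in a fit of the 4 naive and IL-2 arrays alone (limma adjusted p at most 0.185). Y-linked probe sets, which have no target in female mice, reached a group mean of 4.96 at most. Over the tested genes, which are no replicates of each other, the naive arrays correlated at 0.986 and the IL-2 arrays at 0.994.

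Markers of other spleen cells separated the groups too. All 13 tested B cell markers (15 listed) fell, with a median difference of -2.51, and their mean level was 8.94 and 8.87 on the naive arrays against 6.75 and 6.73 on the IL-2 arrays. Cd22, an inhibitory receptor of B cells, read 9.20 and 8.91 and then 6.51 and 6.39. Both IL-2 arrays of 8 of these 13 genes lay at or below the filter level of 6.83, so those genes entered the test through the naive or IL-12 arrays.

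Macrophages and other myeloid cells showed the same direction. Of 11 tested myeloid and dendritic cell markers (19 listed), 9 fell, 1 rose and 1 was not called, and their mean level went from 8.20 and 8.42 to 6.72 and 6.50. In 6 of the 11 both IL-2 arrays lay at or below the filter level, so these entered the test through the naive or IL-12 arrays. With no filter, 11 of 18 fell and 1 rose, with a median of -0.59 in place of -1.94. Of 8 tested MHC class II genes, 6 fell, and their mean level went from 10.12 and 10.15 to 8.13 at most. A further 19 genes of splenic macrophages were listed after the values were seen, and 14 were tested. All 14 fell, from means of 8.23 and 8.69 to 5.95 and 5.99. In 12 of these both IL-2 arrays lay at or below the filter level, as did the IL-12 arrays. Those 12 entered the test only through the naive arrays and had to be lower in IL-2 cells. The subunits C1qb and C1qc of complement C1q were among them: C1qb read 9.03 and 10.03 on the naive arrays and 5.92 and 5.92 on the IL-2 arrays. Cd163, a scavenger receptor of macrophages, did not pass the filter, nor did Marco, Timd4, Vsig4 and Cd5l. Vsig4 read 4.79 and 5.24 and then 5.07 and 4.90, while Cd5l read 6.72 and 7.78 and then 4.98 and 4.96. Erythroid and platelet markers had 0 calls among 4 tested genes. Most tested B cell, MHC class II, myeloid and macrophage markers were thus lower in the IL-2 cells, against 19.9% of all tested genes that fell. In such bulk samples, fewer cells of a type and less RNA per cell cannot be told apart, and the part of these markers' cells in the falls given here was not tested.

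**Figure D1:**
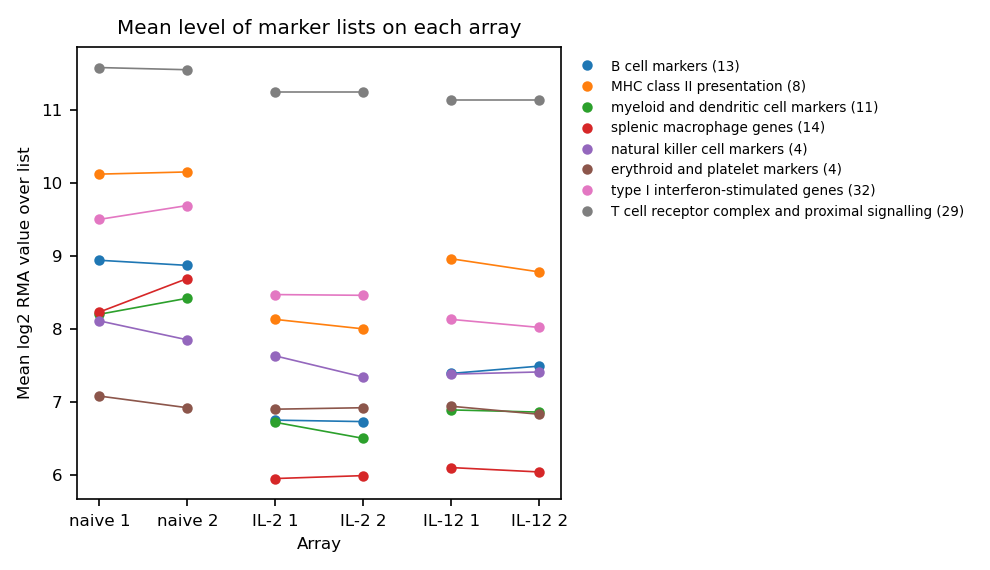
Mean log2 RMA level of 8 gene lists (members tested in brackets) on each of the 6 arrays, 1 point per array, grouped as naive, IL-2 and IL-12. The T cell receptor list stays between 11.13 and 11.58 on all arrays, while the B cell, MHC class II, myeloid and macrophage lists are highest on both naive arrays.

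Calls of a change of any size and intervals within 1.5-fold are unlike criteria, so their counts are not set against each other. Against a 1.5-fold change, 1152 genes were called. Of 11147 tested genes, 2873 rose (25.8%) and 2222 fell (19.9%), so that 45.7% were called in either direction. A change of at least 2-fold with a call was seen in 1202 genes (10.8%), of which 793 rose and 409 fell. Rises were also the larger ones: 265 genes rose and 91 fell by at least 4-fold, and 47 rose and 4 fell by at least 16-fold. Among called genes with non-overlapping arrays, predicted genes left out, Nrn1 rose most. It read 5.71 and 6.08 on the naive and 11.25 and 11.43 on the IL-2 arrays. The interval lay within 1.5-fold for 5578 genes (50%), of which 296 were called as small changes, and 770 genes were neither called nor within 1.5-fold. The median difference over all tested genes was 0.01, with quartiles of -0.25 and 0.36. Arrays of the groups did not overlap in 73.9% of the tested genes, so a gene with non-overlapping arrays was the rule here.

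These counts depended on single arrays and on the centring. Without IL-2 array 1 the called genes numbered 3341 and those that fell 1364, and without IL-2 array 2 those that fell numbered 1444. Of the called genes 56.4% rose. With each array centred on its median over all probe sets, 3274 genes rose and 1574 fell (67.5% rose). With each array centred on the median of the tested genes, a setting chosen after seeing the data, 2439 rose and 3006 fell (44.8% rose). The first of these centrings moved the median of all tested genes to 0.11. The called genes named here kept their direction under both centrings.

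**Figure D2:**
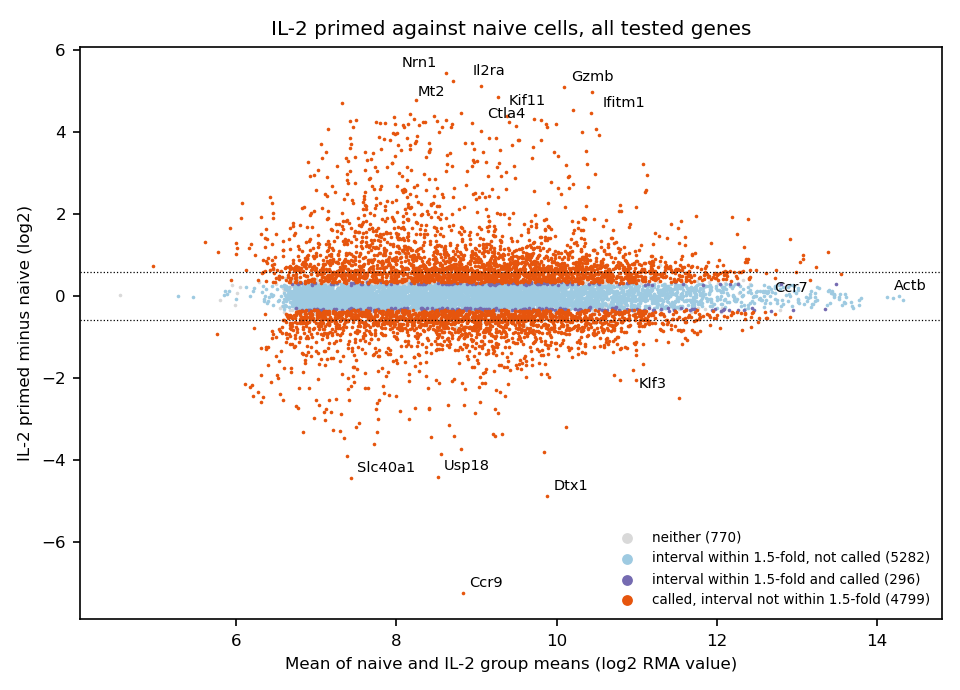
Each point is 1 of 11147 tested genes: the mean log2 RMA level over both groups is on the x axis and the IL-2 minus naive log2 difference on the y axis, coloured by whether the gene was called and whether its interval lay within 1.5-fold. Dotted lines mark 1.5-fold in either direction. More genes lie far above the lines than far below, and Ccr9 lies lowest.

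A switch from background to clear signal was looked for directly. Under the rule that both arrays of one group lie at or below the Y-linked level of 4.96 and both of the other above 6.83, 0 genes were switched on and 0 off, although limma called 5095 genes at the adjusted threshold and 5904 at an unadjusted p under 0.05. With the 25th percentile of all values, 5.60, as the low level, chosen after seeing the data, 18 genes were low in naive cells and present in IL-2 cells, and 18 the reverse. The first set held genes of spindle and chromosome segregation. Hmmr, a spindle protein, read 4.94 and 4.98 on the naive and 9.82 and 9.53 on the IL-2 arrays, at least 16.9-fold higher than the low level. Ska3, a kinetochore protein, read 5.18 and 5.50 and then 9.74 and 9.56, and the kinesin Kif4 5.16 and 5.40 and then 9.55 and 9.54. Car5b, a mitochondrial carbonic anhydrase outside the division machinery, read 5.57 and 5.39 and then 9.51 and 9.20.

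Genes present in naive and low in IL-2 cells were of mixed origin. Ccr9, the receptor for the gut chemokine Ccl25, read 12.43 and 12.46 on the naive and 5.20 and 5.22 on the IL-2 arrays, at least 115-fold above the low level in naive cells. Dntt, the polymerase that adds nucleotides at receptor joints in developing lymphocytes, read 7.29 and 7.84 and then 5.19 and 5.02. Others were genes of macrophages and B cells: C1qc read 8.18 and 8.73 and then 5.48 and 5.49, the B cell complement receptor Cr2 8.26 and 7.89 and then 5.30 and 5.52, and the macrophage transcription factor Spic 7.04 and 7.82 and then 5.09 and 5.11.

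Il2ra and Il2rb, 2 chains of the IL-2 receptor, rose, as did the feedback inhibitors Socs2 and Cish, while Socs3 and Jak1 fell and Stat5b and Jak2 stayed within 1.5-fold. Il2ra, the alpha chain that gives the receptor high affinity, read 6.52 and 6.45 on the naive arrays and 11.73 and 11.51 on the IL-2 arrays, a rise of 5.13 ± 0.11 (limma adjusted p = 5.07e-08). Il2rb, the signalling beta chain, was already high at 11.80 and 11.76 and read 12.36 and 12.40 after priming (0.60 ± 0.10; limma adjusted p = 0.00147). Neither gene's groups overlapped.

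The feedback genes were uneven. Socs2, a STAT5 target that limits cytokine signalling, went from 6.37 and 6.69 to 10.49 and 10.58, 16-fold higher in a rise of 4.00 ± 0.19 (limma adjusted p = 6.33e-07). With the mean of its 2 probe sets in place of the brighter one, the rise of Socs2 was 2.65. Cish, a second STAT5-induced inhibitor, went from 7.82 and 7.95 to 9.16 and 9.09 (1.24 ± 0.10; limma adjusted p = 2.51e-05). Both stood higher in IL-2 than in IL-12 cells, where Socs2 read 8.89 and 9.48 and Cish 8.07 and 8.11; the IL-12 minus IL-2 difference of Cish was -1.03 ± 0.10 (limma adjusted p = 0.000296). Socs3, an inhibitor of IL-6 signalling, fell from 9.49 and 9.75 to 8.39 and 8.66 (-1.09 ± 0.13; limma adjusted p = 0.000255), and Socs1 was not called, at 8.87 and 9.39 and then 8.49 and 8.96. Pim1, a STAT-induced survival kinase, rose by 1.13 ± 0.14 (limma adjusted p = 0.000255) and Nfil3, a transcription factor, by 1.55 ± 0.14 (limma adjusted p = 4.52e-05).

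Transcripts of the signalling proteins differed by less. Jak1, the kinase bound to the beta chain, fell from 12.81 and 12.80 to 12.04 and 12.06 (-0.75 ± 0.10; limma adjusted p = 0.000329). Il21r, a sister receptor of the same cytokine family, fell from 11.65 and 11.78 to 11.11 and 10.97 (-0.67 ± 0.14; limma adjusted p = 0.00507). Stat5b read 10.31 and 10.35 and then 10.21 and 10.21, with an interval of -0.34 to 0.10, and Jak2 read 10.04 and 10.002 and then 10.03 and 10.04, with an interval of -0.21 to 0.23. Il15ra, which presents IL-15, had an interval of -0.05 to 0.42, also within 1.5-fold. Of the 27 tested genes of the IL-2 receptor and JAK-STAT5 list (30 listed), 11 rose, 6 fell and 10 were not called, with a median of 0.01. Over all tested genes 25.8% rose and 19.9% fell, and fewer genes of the list fell without IL-2 array 1.

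Transcripts of the granzyme Gzmb and of perforin, Prf1, moved in opposite directions. Gzmb, the main death-inducing protease of killer cells, read 7.93 and 7.17 on the naive arrays and 12.76 and 12.54 on the IL-2 arrays, a rise of 5.10 ± 0.22 (limma adjusted p = 3.87e-07). Prf1, the pore protein that lets granzymes into the target, fell from 9.97 and 10.29 to 8.74 and 8.55 (-1.48 ± 0.14; limma adjusted p = 5.42e-05) and read 10.02 and 9.82 in IL-12 cells. The 2 genes' groups did not overlap in either case. Natural killer cells are rich in perforin too. Of 4 tested natural killer cell markers (14 listed) 2 fell, the signalling adaptor Tyrobp (-2.37 ± 0.16; limma adjusted p = 5.25e-06), which myeloid cells share, and Klra3 (-0.71 ± 0.24; limma adjusted p = 0.0389), 1 rose and 1 was not called. Their mean level went from 8.11 and 7.85 to 7.63 and 7.34, and the defining markers Ncr1 and Klrb1c did not pass the filter. The call of Klra3 was lost without either naive array, without IL-2 array 2, with no filter, with arrays centred on their median or with quantile normalisation. The part of these markers' cells in the fall of Prf1 was not tested.

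Of 19 tested granule and death ligand genes (25 listed), 8 rose, 2 fell and 9 were not called, with a median of 0.29. Over all tested genes 25.8% rose and 19.9% fell. Gzmc rose from 5.52 and 5.57 to 6.96 and 6.68 (1.27 ± 0.12; limma adjusted p = 4.74e-05). Serpinb6b, a protease inhibitor, rose by 1.61 ± 0.13 (limma adjusted p = 2.02e-05), and Fasl, the ligand of the death receptor Fas, by 1.20 ± 0.18 (limma adjusted p = 0.000788). Gzma varied more between arrays, from 8.74 and 7.23 to 10.48 and 9.57, a rise of 2.05 ± 0.44 (limma adjusted p = 0.00523) that was 2.80 without naive array 1 and 1.29 without naive array 2. Rab27a, which docks granules at the membrane, rose by 0.72 ± 0.11 (limma adjusted p = 0.000902). Lamp1, in the granule membrane, Srgn, the proteoglycan core of granules, and Unc13d, which primes their release, had intervals of -0.23 to 0.35, -0.10 to 0.36 and -0.14 to 0.32. The second fall beside Prf1 was that of Gzmm, granzyme M, from 8.05 and 8.13 to 7.63 and 7.43 (-0.56 ± 0.13; limma adjusted p = 0.00677); without IL-2 array 2, 1 gene of the list fell.

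Cytokine genes changed one by one. Ccl3, a chemokine for inflamed sites, rose most of the tested cytokine genes: its arrays went from 7.22 and 7.98 to 11.56 and 11.03 (3.69 ± 0.38; limma adjusted p = 8.34e-05). Csf1, the macrophage growth factor, rose from 6.85 and 6.46 to 8.24 and 7.85 (1.39 ± 0.17; limma adjusted p = 0.000293) and Tnf from 8.61 and 8.98 to 9.70 and 9.58 (0.85 ± 0.15; limma adjusted p = 0.00191). Ifng, the interferon of killer cells, read 6.96 and 6.76 and then 10.25 and 9.43. None of these groups overlapped.

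Il10, an inhibitory cytokine, was below the highest Y-linked group mean of 4.96 on both naive arrays, at 4.52 and 4.67, so the size of its difference is not given. It read 5.18 and 5.46 on the IL-2 arrays, little above that level, and 10.45 and 10.46 in IL-12 cells. Lta, Xcl1 and Tnfsf14, a lymphotoxin, a chemokine for dendritic cells and a ligand of the TNF family, had intervals of -0.27 to 0.21, -0.15 to 0.36 and -0.07 to 0.47. Cxcl9, a chemokine made under interferon gamma, fell from 7.81 and 7.52 to 6.32 and 6.35 (-1.33 ± 0.12; limma adjusted p = 4.61e-05); markers of B cells and macrophages fell with it, and their part was not tested. Of 19 tested genes (29 listed), 6 rose, Il10 among them, 3 fell and 10 were not called, and fewer fell without either IL-2 array. These shares were near the 25.8% of all tested genes that rose and the 19.9% that fell. In 4 of the 19 both IL-2 arrays lay at or below the filter level, and in 2 both naive arrays did.

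Inhibitory and costimulatory receptors changed in both directions. Of 14 tested inhibitory receptors and ectoenzymes (18 listed), 7 rose and 3 fell, with a median of 0.32; of 18 tested costimulatory receptors and ligands (20 listed), 6 rose and 8 fell, with a median of -0.21. The 8 falls were 5 without naive array 1 or IL-2 array 1, 4 without IL-2 array 2, and 5 with arrays centred on their median. Over all tested genes 25.8% rose and 19.9% fell, and the difference between these lists was not tested.

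Ctla4, which competes with CD28 for its ligands, read 7.85 and 7.68 on the naive and 11.91 and 12.03 on the IL-2 arrays, 18.4-fold higher in a rise of 4.20 ± 0.11 (limma adjusted p = 5.11e-08). Pdcd1, which encodes PD-1, rose from 6.76 and 7.08 to 9.16 and 9.54 (2.43 ± 0.16; limma adjusted p = 5.1e-06). Both genes' IL-2 arrays stood far above both naive arrays. Lag3, Tigit and Havcr2, 3 further inhibitory receptors, rose by 2.18 ± 0.15 (limma adjusted p = 8.55e-06), 2.06 ± 0.11 (limma adjusted p = 1.46e-06) and 2.04 ± 0.18 (limma adjusted p = 3.17e-05). Btla, another inhibitory receptor, went the other way, from 9.64 and 9.48 to 8.77 and 8.88 (-0.73 ± 0.11; limma adjusted p = 0.000707), as did Nt5e, the ectoenzyme CD73 that makes adenosine (-1.47 ± 0.15; limma adjusted p = 9.7e-05). Cd274, which encodes the ligand PD-L1, had an interval of -0.38 to 0.11.

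Among activating receptors, Icos rose from 9.98 and 10.16 to 11.39 and 11.41 (1.33 ± 0.11; limma adjusted p = 2.02e-05), Tnfrsf9, which encodes 4-1BB, from 8.08 and 8.16 to 9.60 and 9.43 (1.40 ± 0.20; limma adjusted p = 0.00066) and Klrk1, which encodes NKG2D, from 7.52 and 7.07 to 8.89 and 8.57 (1.44 ± 0.16; limma adjusted p = 0.000165). Tnfrsf25 and Tnfrsf14, receptors of the TNF family, fell by 0.88 and 0.86 on the log2 scale (limma adjusted p = 0.000471 and limma adjusted p = 0.000392). Tnfrsf4, which encodes OX40, was not called, and its arrays overlapped, at 8.09 and 7.73 against 7.98 and 8.06.

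Among chemokine and S1P receptors, 4 of 9 tested (14 listed) rose and 3 fell, against 25.8% of all tested genes that rose and 19.9% that fell. In 2 of the 9 both IL-2 arrays lay at or below the filter level. Cxcr3, the receptor for interferon-induced chemokines, went from 10.58 and 10.51 to 12.33 and 12.28 (1.76 ± 0.10; limma adjusted p = 2.03e-06). Ccr2, a receptor for inflammatory chemokines, went from 7.52 and 7.59 to 9.83 and 9.30 (2.01 ± 0.23; limma adjusted p = 0.000171), and Ccr4, a receptor used in homing to skin, from 7.09 and 7.43 to 8.76 and 8.81 (1.53 ± 0.15; limma adjusted p = 7.49e-05). Ccr4 read 7.29 and 7.65 in IL-12 cells. Cxcr5, the receptor for B cell follicles, fell from 7.80 and 7.99 to 5.80 and 5.52; B cells express it too, and the part of the falling B cell markers was not tested. S1pr4, a lipid receptor, had an interval of -0.29 to 0.19.

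Adhesion molecules split in the same way within 1 family. Itgb1, the beta 1 integrin chain, rose from 9.65 and 9.70 to 11.92 and 11.90 (2.23 ± 0.14; limma adjusted p = 4.47e-06), while Itga4, an alpha chain that pairs with it, fell from 12.01 and 11.89 to 10.66 and 11.01 (-1.11 ± 0.17; limma adjusted p = 0.000888). Alcam, a ligand of CD6, rose by 2.61 ± 0.11 (limma adjusted p = 2.67e-07) and Fut7, which builds selectin ligands, by 1.44 ± 0.12 (limma adjusted p = 2.17e-05). The sialyltransferases St6gal1 and St3gal1 fell by 1.29 and 1.05 on the log2 scale (limma adjusted p = 0.000353 and limma adjusted p = 0.000189). Across the refits with other settings, the difference of St3gal1 lay between -1.14 and -0.62. Selplg, the protein core of the P-selectin ligand, and Itgb7 had intervals of -0.16 to 0.30 and -0.29 to 0.16. Of 20 tested genes (22 listed), 6 rose, 9 fell and 5 were not called, against 25.8% of all tested genes that rose and 19.9% that fell.

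Of 28 tested transcription factors of effector cells (31 listed), 12 rose, 5 fell and 11 were not called, with a median of 0.26. Over all tested genes 25.8% rose and 19.9% fell, so the share of falls was near that of all genes. Bhlhe40, a repressor induced by activation, read 6.43 and 6.22 on the naive and 10.43 and 9.61 on the IL-2 arrays, a rise of 3.69 ± 0.23 (limma adjusted p = 3.31e-06). Irf4, which scales with receptor signal strength, went from 7.13 and 6.98 to 8.95 and 8.82 (1.83 ± 0.11; limma adjusted p = 2.79e-06). Ikzf2, which encodes Helios, went from 8.51 and 8.31 to 9.996 and 10.11 (1.64 ± 0.13; limma adjusted p = 1.42e-05). In each of these genes both IL-2 arrays lay above both naive arrays.

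Id2, which holds back E proteins, rose by 1.03 ± 0.12 (limma adjusted p = 0.000165), Prdm1, which encodes the effector repressor Blimp-1, by 0.85 ± 0.13 (limma adjusted p = 0.000849), and Batf, an AP-1 partner of Irf4, by 0.68 ± 0.11 (limma adjusted p = 0.00155). Id3, the counterpart of Id2 in memory precursors, rose as well, from 8.01 and 8.25 to 8.96 and 9.33 (1.01 ± 0.14; limma adjusted p = 0.000574). Some factors that act early after antigen were within 1.5-fold of the naive level at this time, while Irf4 and Nr4a2 rose. Myc, a growth regulator, read 11.40 and 11.39 and then 11.78 and 11.50, with an interval of -0.03 to 0.52. Nfatc1, Nfatc2 and Rel, which carry the receptor signal to the nucleus, had intervals of -0.38 to 0.15, -0.29 to 0.26 and -0.29 to 0.23. Without IL-2 array 1, 1 of the 28 effector regulators fell.

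Immediate early genes differed between the 2 IL-2 arrays. Jun read 10.48 on IL-2 array 1 and 8.90 on array 2, with 9.99 and 9.62 in naive cells, and Fos read 8.37 and 7.13 with 7.95 and 7.50 in naive cells. Both AP-1 subunits overlapped between groups and were not called. IL-12 array 1 was likewise above IL-12 array 2, at 11.53 against 10.59 for Jun. Nr4a2, a nuclear receptor induced by antigen, did rise, from 7.48 and 7.25 to 9.15 and 8.91 (1.67 ± 0.13; limma adjusted p = 1.59e-05), as did the ERK phosphatase Dusp5 (0.87 ± 0.11; limma adjusted p = 0.000353). Of 24 tested genes, 8 rose, 5 fell and 11 were not called; 5 rose without IL-2 array 1, 2 or 3 fell without any 1 of the 4 arrays, and 2 with arrays centred on their median. Naive array 1 stood above naive array 2 in Jun and Fos as well. Of the 24 genes, 2 were within 1.5-fold, against 50% of all tested genes. Over all tested genes 25.8% rose and 19.9% fell.

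**Figure D3:**
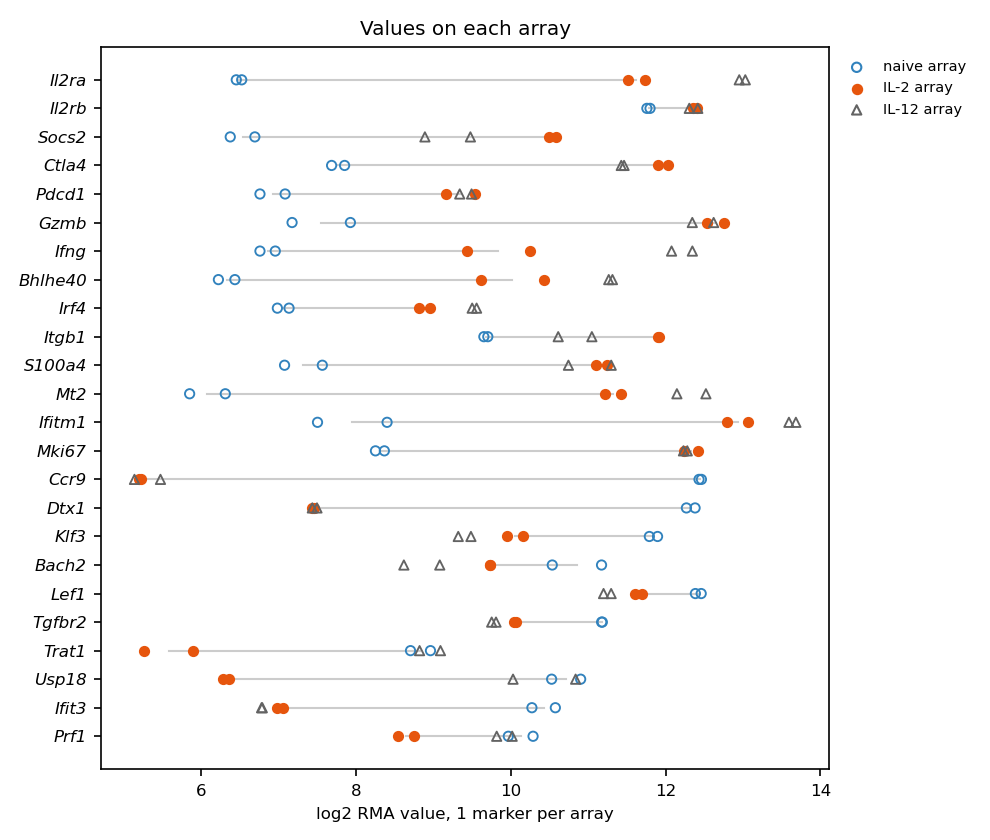
Log2 RMA values of 24 genes, 1 row per gene, with open circles for naive, filled circles for IL-2 and triangles for IL-12 arrays; the grey line joins the naive and IL-2 means. Il2ra, Ctla4, Gzmb and Mki67 stand higher on both IL-2 arrays than on both naive arrays, while Ccr9, Dtx1 and Trat1 stand lower.

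Genes of cell division rose together, and promoters are shown for letters of the motifs known to time them. These were the CHR (TTTGAA or TTCGAA), at which the MuvB complex acts in late cell cycle genes, and a loose form of the E2F site (TTTNNCGC). Promoters of a kinesin and a condensin subunit are shown with the CHR in capitals on either strand, and that of Uhrf1, a replication-linked chromatin protein, with the E2F letters in capitals; each line gives the 150 bases before the start from RefSeq on GRCm38.p6, plus strand, 5′ to 3′.
Kif11 chr19:37376232-37376381: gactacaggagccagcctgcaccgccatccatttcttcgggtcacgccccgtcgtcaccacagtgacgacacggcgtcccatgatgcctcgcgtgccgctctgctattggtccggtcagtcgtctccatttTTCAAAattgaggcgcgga
Ncapg chr5:45669775-45669924: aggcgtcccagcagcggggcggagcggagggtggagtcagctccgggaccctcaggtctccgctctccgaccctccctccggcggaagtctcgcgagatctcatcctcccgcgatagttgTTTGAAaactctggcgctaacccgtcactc
Uhrf1 chr17:56303187-56303336: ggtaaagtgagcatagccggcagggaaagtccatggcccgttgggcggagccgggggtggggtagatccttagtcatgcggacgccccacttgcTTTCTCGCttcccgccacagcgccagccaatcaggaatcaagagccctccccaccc
On either strand of the 250 bases before the start, the CHR letters stood in 40.5% of 42 promoters of 40 mitosis genes (50 tested), against 17.1% of all 32851 promoters. The E2F letters stood in 27.0% of 37 promoters of 32 replication genes (39 tested), against 4.3% of all. A match is a description of letters and need not be a binding site, and other forms of these sites were not searched. The promoters shown were picked, by size of rise, only from members with a match in the 150 bases. Bub1 and Rrm2, with rises of 4.79 and 4.20, had no match in the 250 bases and were not shown.

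Kif11, the motor that separates spindle poles, read 6.69 and 6.99 on the naive and 11.76 and 11.65 on the IL-2 arrays. Ncapg, a condensin subunit, rose from 5.75 and 6.14 to 10.42 and 10.35 (4.44 ± 0.14; limma adjusted p = 6.5e-08). Mki67, the Ki-67 protein that coats mitotic chromosomes, rose from 8.37 and 8.25 to 12.41 and 12.24 (4.02 ± 0.11; limma adjusted p = 5.11e-08). In each of these genes the gap between the 2 IL-2 arrays was a small fraction of the rise.

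Every tested gene of spindle, kinetochore and mitosis rose, 50 of 50 (51 listed), against 25.8% of all tested genes, with a median of 3.75. Of these, 49 rose by at least 4-fold and 22 by at least 16-fold. In 25 of the 50, both naive arrays were at or below the filter level, so these genes entered the test only through primed arrays and had to differ; without the filter, 49 of 50 rose. Smc4, a condensin subunit, rose least, by 0.35 ± 0.12 (limma adjusted p = 0.0464), and its call was lost without naive array 2 or either IL-2 array (limma adjusted p = 0.138, 0.173 and 0.161). The call of Smc4 was also lost with no filter, with quantile normalisation, with a replicate block, and with arrays centred on the median of the tested genes, so that 49 of the 50 rose in each of these settings.

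Replication genes rose as well. All 39 tested genes (40 listed) rose, against 25.8% of all tested genes. Of the 39, 33 rose by at least 2-fold and 16 by at least 4-fold, with a median of 1.89. In 4 of them both naive arrays were at or below the filter level. Uhrf1 went from 7.14 and 7.56 to 10.77 and 10.53 (3.30 ± 0.15; limma adjusted p = 5.39e-07) and Rrm2, the regulated subunit of ribonucleotide reductase, from 7.54 and 8.24 to 12.11 and 12.06 (4.20 ± 0.20; limma adjusted p = 6.33e-07). Pcna, the sliding clamp, was bright in naive cells at 11.86 and 11.96 and read 12.88 and 12.77 (0.92 ± 0.10; limma adjusted p = 0.00015). The licensing helicase subunits Mcm2, Mcm3, Mcm4, Mcm5, Mcm6 and Mcm7 rose by 1.11 to 2.02.

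Regulators of the cycle were uneven. Of all tested genes, 25.8% rose and 19.9% fell. E2f8 and E2f2 rose by 3.95 ± 0.12 (limma adjusted p = 6.4e-08) and 3.52 ± 0.13 (limma adjusted p = 1.43e-07), and Foxm1, the activator of mitotic genes, by 3.33 ± 0.10 (limma adjusted p = 6.3e-08). Ccne2, a G1 cyclin, rose by 3.07 ± 0.19 (limma adjusted p = 3.49e-06). E2f4, a repressor of resting cells, and Ccnd3, a D-type cyclin, had intervals of -0.08 to 0.39 and -0.07 to 0.40. The Cdk inhibitor Cdkn2c rose, from 7.54 and 8.07 to 10.25 and 10.41 (2.52 ± 0.21; limma adjusted p = 2.69e-05). Of 27 tested genes (29 listed), 19 rose, 3 fell and 5 were not called; without IL-2 array 1 or with arrays centred on their median, 1 fell.

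Energy and lipid genes rose moderately and together, each list more often than the 25.8% of all tested genes that rose. Of 31 tested genes of the TCA cycle and respiratory chain (33 listed), 24 rose, 0 fell and 7 were not called, with a median of 0.59. Fh1, fumarase, went from 8.95 and 9.42 to 10.60 and 10.62 (1.42 ± 0.15; limma adjusted p = 0.000102), and Cox5a, a subunit of cytochrome oxidase, from 9.93 and 10.15 to 11.17 and 11.12 (1.10 ± 0.11; limma adjusted p = 7.66e-05). Sdha, the catalytic subunit of complex II, had an interval of -0.33 to 0.13, although its partner Sdhb rose by 0.92 ± 0.12 (limma adjusted p = 0.000386).

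Fatty acid oxidation showed 11 rises and 0 falls among 16 tested genes, with a median of 0.59. Acadl, which oxidises long-chain fatty acids, rose from 8.57 and 8.60 to 10.06 and 10.05 (1.47 ± 0.10; limma adjusted p = 5.26e-06), and Cpt1a, which admits them to mitochondria, from 10.31 and 10.01 to 10.91 and 11.01 (0.81 ± 0.12; limma adjusted p = 0.000941). The opposite pathway rose too: 19 of 25 tested genes of cholesterol and fatty acid synthesis (28 listed) rose and 0 fell, with a median of 0.98. Cyp51, of sterol synthesis, went from 7.31 and 8.02 to 9.71 and 9.45 (1.91 ± 0.21; limma adjusted p = 0.000119), and Scd2, a fatty acid desaturase, from 10.56 and 10.97 to 12.90 and 12.55 (1.96 ± 0.17; limma adjusted p = 3.14e-05). Acly and Fasn, which start fatty acid synthesis, did not follow, with intervals of -0.29 to 0.24 and -0.20 to 0.35.

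Glycolysis was more divided, with 10 rises and 10 genes not called among 21 tested (24 listed); without IL-2 array 1, 6 rose. Pkm, pyruvate kinase, rose from 10.53 and 10.86 to 11.82 and 11.54 (0.98 ± 0.16; limma adjusted p = 0.00126) and Hk2, an inducible hexokinase, from 6.44 and 6.48 to 7.22 and 7.09 (0.70 ± 0.12; limma adjusted p = 0.00167). Slc2a1, the glucose transporter Glut1, was not called, at 10.25 and 10.57 and then 10.36 and 10.10, and read 11.91 and 11.20 in IL-12 cells. Of all tested genes, 25.8% rose and 19.9% fell.

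Proteasome genes rose, while genes of ribosome assembly kept a median near 0. Of 30 proteasome genes 23 rose and 6 were not called, with a median of 0.60; Psmb4, a core subunit, rose by 1.06 ± 0.14 (limma adjusted p = 0.000353). Psme1 and Psme2, the interferon-inducible activator, had intervals of -0.38 to 0.19 and -0.28 to 0.16. Of 18 tested tRNA synthetases 7 rose and 0 fell, against 25.8% of all tested genes that rose and 19.9% that fell. Psat1, of serine synthesis, rose by 2.04 ± 0.13 (limma adjusted p = 4.93e-06), among 11 rises in 22 tested genes of serine, one-carbon and nucleotide synthesis (26 listed). In the endoplasmic reticulum list 10 of 22 rose and 3 fell; without IL-2 array 1, 6 rose. Sdf2l1, a chaperone cofactor, rose most there, by 1.72 ± 0.22 (limma adjusted p = 0.000283), while the main chaperone Hspa5 had an interval of -0.20 to 0.36.

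Ribosome biogenesis had a median of -0.08 in 25 tested genes (26 listed), with 2 rises, 8 falls and 15 genes within 1.5-fold; 4 fell without naive array 2, without IL-2 array 2, or with arrays centred on their median. Polr1a, the large subunit of RNA polymerase I, fell from 9.57 and 9.46 to 8.81 and 8.65 (-0.79 ± 0.11; limma adjusted p = 0.00058), and Polr1b, its second subunit, fell too, to 8.99 and 8.89 (-0.75 ± 0.11; limma adjusted p = 0.000573). In IL-12 cells Polr1b read 9.79 and 9.92. Fbl, the nucleolar methyltransferase fibrillarin, had an interval of -0.39 to 0.27. Of all tested genes, 25.8% rose, 19.9% fell and 50% were within 1.5-fold.

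**Figure D4:**
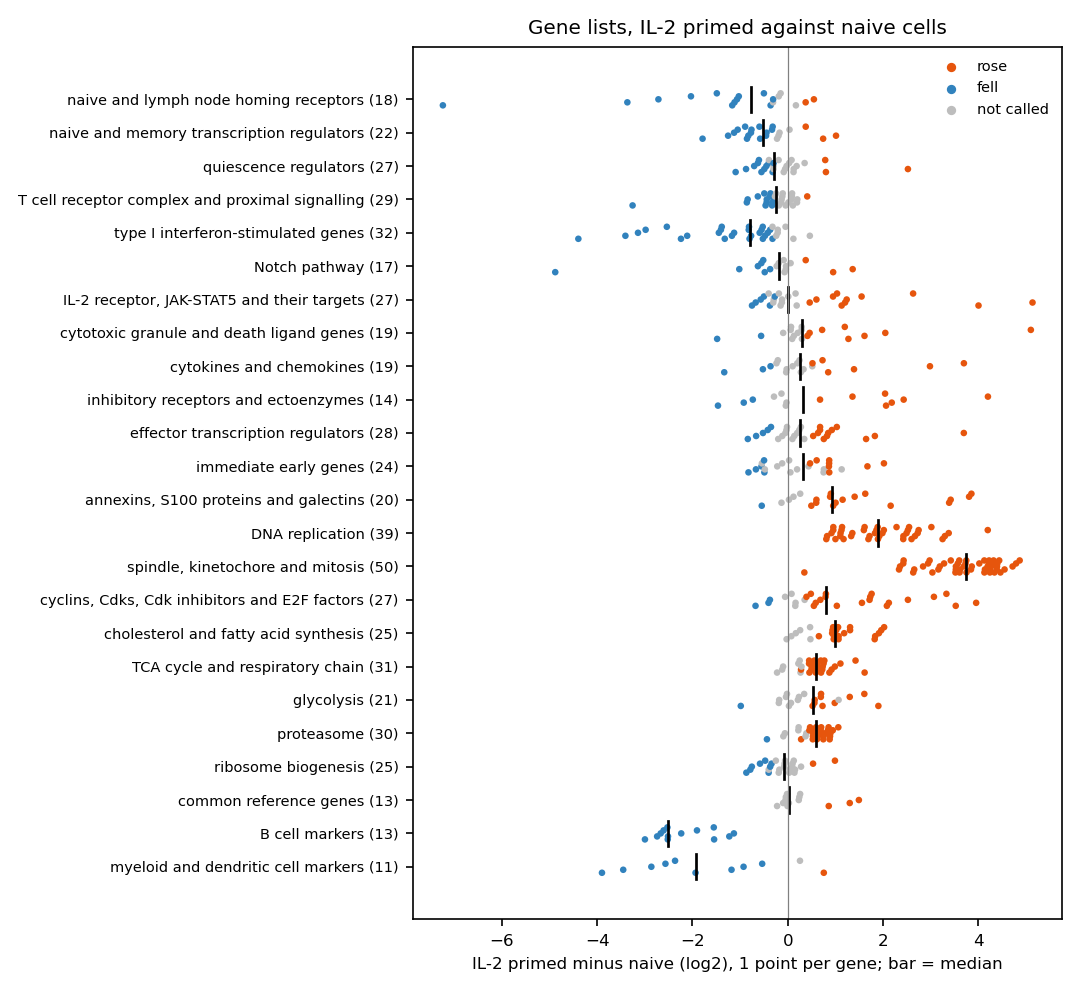
IL-2 minus naive log2 differences for the tested members of 24 gene lists, 1 point per gene, coloured by call, with a bar at the median of each list and its number of tested genes in brackets. All mitosis and replication genes lie above 0, interferon-stimulated genes lie mostly below 0, and T cell receptor genes gather near 0 except Trat1.

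Metallothioneins are small proteins that bind zinc and copper, and of the 3 tested Mt2 and Mt1 rose. Their promoters were searched for TGCNCNC, a loose form of the metal response element read by the zinc sensor Mtf1, so a match need not be that element. The 150 bases before the start of these 2 members are shown, from RefSeq on GRCm38.p6, plus strand, with the searched letters in capitals on either strand.
Mt2 chr8:94172468-94172617: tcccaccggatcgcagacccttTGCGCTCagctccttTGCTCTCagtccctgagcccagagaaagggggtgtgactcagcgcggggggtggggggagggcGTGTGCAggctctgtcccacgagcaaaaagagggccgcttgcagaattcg
Mt1 chr8:94178939-94179088: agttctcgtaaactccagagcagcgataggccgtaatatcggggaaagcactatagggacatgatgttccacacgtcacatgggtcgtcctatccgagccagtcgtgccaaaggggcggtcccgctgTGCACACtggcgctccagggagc
These letters stood in the searched 250 bases of 3 of 3 metallothionein genes, but also in 44.4% of all promoters, so their presence is common. Mt2 read 5.85 and 6.31 on the naive arrays and 11.22 and 11.43 on the IL-2 arrays, and Mt1 read 7.88 and 7.82 and then 10.86 and 10.69 (2.93 ± 0.11; limma adjusted p = 1.45e-07). Mt3, the third member tested, had an interval of -0.01 to 0.47. Slc39a4 and Slc39a6, zinc importers, rose by 1.15 ± 0.12 (limma adjusted p = 8.68e-05) and 0.65 ± 0.14 (limma adjusted p = 0.0062), and the importer Slc39a14 fell (-0.66 ± 0.14; limma adjusted p = 0.00456). Of 18 tested genes 7 rose and 3 fell, against 25.8% of all tested genes that rose and 19.9% that fell.

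Among iron genes the uptake receptor rose. Tfrc, the transferrin receptor, rose from 8.47 and 8.44 to 9.98 and 9.91 (1.49 ± 0.12; limma adjusted p = 1.47e-05). Fth1, the ferritin heavy chain, and Ireb2, an iron sensor, had intervals of -0.31 to 0.13 and -0.27 to 0.19. Hmox1, a haem oxygenase abundant in splenic macrophages, fell from 10.67 and 10.70 to 8.11 and 7.58 (-2.84 ± 0.16; limma adjusted p = 2.01e-06), alongside the macrophage list, whose part was not tested. Slc40a1, also on the macrophage list, fell most of the iron genes, from 9.32 and 9.985 to 5.18 and 5.26. Of 13 tested genes (14 listed) 3 rose, 2 fell and 8 were not called, shares near those of all tested genes (25.8% rose and 19.9% fell).

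Of 20 tested annexins, S100 proteins, galectins and relatives (22 listed), membrane and calcium-binding genes of memory and effector cells, 15 rose. This stood against 25.8% of all tested genes, and the median of the list was 0.93. S100a4 went from 7.56 and 7.08 to 11.10 and 11.24 (3.85 ± 0.20; limma adjusted p = 1.33e-06), S100a6 from 7.53 and 7.74 to 11.49 and 11.39 (3.80 ± 0.12; limma adjusted p = 7.9e-08) and Lgals3, galectin-3, from 8.29 and 8.33 to 11.63 and 11.82 (3.42 ± 0.12; limma adjusted p = 8.88e-08). Anxa2, a partner of S100a10 at the membrane, went from 7.84 and 8.17 to 11.50 and 11.29 (3.38 ± 0.14, 10.4-fold; limma adjusted p = 3.19e-07). None of these genes overlapped between groups. Lgals9 and Lgals8 had intervals of -0.25 to 0.30 and -0.37 to 0.10.

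Genes answering type I interferon fell. The interferon response element contains GAAANNGAA. Promoters are shown for 2 listed members, picked by size of change only from those with these letters in the 150 bases shown. The letters are in capitals on either strand, overlapping copies merged. Each line gives the 150 bases before the start from RefSeq on GRCm38.p6, plus strand.
Ifit3 chr19:34583379-34583528: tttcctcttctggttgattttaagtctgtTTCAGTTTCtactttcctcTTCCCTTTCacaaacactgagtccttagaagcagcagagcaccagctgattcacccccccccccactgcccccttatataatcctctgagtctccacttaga
Ifit1 chr19:34640739-34640888: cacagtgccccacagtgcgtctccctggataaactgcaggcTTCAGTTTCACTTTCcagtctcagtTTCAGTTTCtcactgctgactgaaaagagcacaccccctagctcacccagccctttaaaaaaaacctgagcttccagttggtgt
The letters stood in 34.5% of 29 promoters of 23 listed interferon genes (32 tested), against 7.1% of all promoters. Ifit1, which binds foreign RNA, read 9.94 and 10.51 on the naive and 7.20 and 6.96 on the IL-2 arrays (-3.14 ± 0.18; limma adjusted p = 2.05e-06), and Ifit3, its partner, read 10.27 and 10.57 and then 7.05 and 6.98. Both IL-2 arrays lay far under both naive arrays.

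Of 32 tested interferon-stimulated genes (37 listed), 25 fell, 0 rose and 7 were not called, against 19.9% of all tested genes that fell, with a median of -0.79. In 5 of the 32 both IL-2 arrays lay at or below the filter level, so these entered the test through the naive or IL-12 arrays. Ddx60, an RNA helicase, fell from 9.09 and 9.03 to 6.51 and 6.53 (-2.54 ± 0.10; limma adjusted p = 1.94e-07), Rtp4, an interferon-induced chaperone, from 9.71 and 10.03 to 7.77 and 7.75 (-2.11 ± 0.12; limma adjusted p = 2.49e-06), and Irf7, the factor that amplifies the response, from 10.46 and 10.75 to 9.23 and 9.16 (-1.40 ± 0.13; limma adjusted p = 5.8e-05). Tor3a, another member, had an interval of -0.31 to 0.21. The mean level of the list was 9.50 and 9.69 on the naive, 8.47 and 8.46 on the IL-2 and 8.13 and 8.02 on the IL-12 arrays. B cell means fell from 8.94 and 8.87 to 6.75 and 6.73 and macrophage means from 8.23 and 8.69 to 5.95 and 5.99 on the same arrays, and their part in the interferon result was not tested.

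Membrane antiviral proteins of the Ifitm group, often counted among interferon genes, went the opposite way. Ifitm2 rose from 7.52 and 7.71 to 11.44 and 11.39 (3.80 ± 0.13; limma adjusted p = 8.66e-08) and Ifitm3 from 7.36 and 8.44 to 11.62 and 11.79 (3.80 ± 0.30; limma adjusted p = 1.79e-05), with Ifitm1 at 8.40 and 7.50 and then 12.80 and 13.06. Ifitm10 fell (-0.91 ± 0.15; limma adjusted p = 0.00138), and Ifitm5 and Ifitm7 were within 1.5-fold. Of all tested genes, 25.8% rose and 19.9% fell. The guanylate-binding GTPase Gbp9 fell by 1.96 on the log2 scale (limma adjusted p = 1.32e-06) while its relative Gbp3 rose by 0.58 ± 0.10 (limma adjusted p = 0.00203). In that family 5 of 8 tested genes (15 listed) fell and 1 rose; without either IL-2 array 3 fell.

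Surface receptors of naive cells fell in 12 of 18 tested homing and survival receptors (20 listed), against 19.9% of all tested genes. The list had 2 rises, against 25.8% of all tested genes, and a median of -0.77. Ifngr2, the signalling chain of the interferon gamma receptor, read 10.77 and 11.02 on the naive arrays and 7.48 and 7.57 on the IL-2 arrays (-3.37 ± 0.15, 10.3-fold lower; limma adjusted p = 5.43e-07). Il6st, the shared gp130 chain of the IL-6 family, fell from 12.04 and 11.98 to 9.94 and 10.02 (-2.03 ± 0.10; limma adjusted p = 8.41e-07). Tgfbr2, which receives TGF-beta, fell from 11.18 and 11.17 to 10.05 and 10.07 (-1.12 ± 0.10; limma adjusted p = 3.22e-05). Cxcr4, the receptor for the marrow chemokine Cxcl12, fell by 1.07 on the log2 scale (limma adjusted p = 8.6e-05), and Il6ra by 1.17 (limma adjusted p = 0.000187). Macrophage and B cell markers fell on the same arrays, and their part in these falls was not tested. The rises were 0 without IL-2 array 1 and 1 without naive array 2 or IL-2 array 2, with quantile normalisation, or with arrays centred on the median of the tested genes.

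Not every naive receptor fell. Ccr7, the lymph node homing receptor, read 12.87 and 12.97 on the naive and 12.69 and 12.77 on the IL-2 arrays, with an interval of -0.46 to 0.08, and read 11.38 and 11.13 in IL-12 cells. Cd27, a costimulatory receptor of naive and memory cells, read 12.21 and 12.28 and then 12.38 and 12.45, with an interval of -0.06 to 0.40. Il4ra had an interval of -0.41 to 0.10. Both were lower in IL-12 cells, where the IL-12 minus IL-2 difference was -1.47 ± 0.12 for Ccr7 (limma adjusted p = 9.62e-05) and -0.98 ± 0.10 for Cd27 (limma adjusted p = 0.000321).

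Transcription factors of naive and memory cells mostly fell, 15 of 22 tested, against 19.9% of all tested genes. There were 3 rises, against 25.8% of all tested genes, and the median was -0.52. Klf3 went from 11.90 and 11.79 to 9.95 and 10.16 (-1.79 ± 0.12; limma adjusted p = 5.48e-06). Bach2, which restrains effector genes, went from 11.17 and 10.54 to 9.72 and 9.73 (-1.13 ± 0.21; limma adjusted p = 0.00271), and Satb1, a chromatin organiser, from 12.80 and 12.66 to 11.98 and 11.82 (-0.83 ± 0.12; limma adjusted p = 0.000824). Bcl6, Runx1 and Zeb1 fell by 0.90, 1.05 and 0.60 on the log2 scale (limma adjusted p = 0.000267, limma adjusted p = 8.07e-05 and limma adjusted p = 0.00124). Klf2, which keeps naive cells in circulation, read 10.60 and 10.78 and then 10.43 and 10.60, with an interval of -0.45 to 0.10, and Foxo3 read 9.31 and 9.57 and then 9.45 and 9.51, with an interval of -0.24 to 0.31.

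The Notch and Schlafen families each held large and opposite changes. Dtx1, a ubiquitin ligase and Notch target, read 12.27 and 12.38 on the naive and 7.43 and 7.46 on the IL-2 arrays. Notch1 fell from 11.20 and 11.09 to 10.18 and 10.07 (-1.02 ± 0.13; limma adjusted p = 0.000278), whereas Rbpj, the DNA-binding partner of Notch, rose from 9.12 and 9.29 to 10.28 and 10.03 (0.95 ± 0.12; limma adjusted p = 0.000297) and Dtx3 rose by 1.36 ± 0.16 (limma adjusted p = 0.000172). Across the refits with other settings, the rise of Rbpj lay between 0.42 and 1.075. Of 17 tested Notch genes (24 listed) 3 rose, 7 fell and 7 were not called, against 25.8% of all tested genes that rose and 19.9% that fell.

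Slfn5, of the Schlafen family linked to T cell quiescence, fell from 9.88 and 10.41 to 6.87 and 6.56 (-3.43 ± 0.21; limma adjusted p = 3.2e-06) and Slfn8 from 10.98 and 10.82 to 8.95 and 8.89 (-1.97 ± 0.11; limma adjusted p = 2.08e-06). Slfn3 rose from 7.27 and 7.56 to 8.79 and 8.78 (1.37 ± 0.16; limma adjusted p = 0.000178). Slfn2, the member needed to keep T cells at rest, read 10.78 and 10.84 and then 10.79 and 10.89, with an interval of -0.20 to 0.26. Slfn genes lie close together and resemble each other in sequence, and whether their probe sets share targets was not tested.

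Genes that hold cells in quiescence were divided: 3 of 27 tested (28 listed) rose, 11 fell and 13 were not called, with 11 within 1.5-fold. Over all tested genes 25.8% rose, 19.9% fell and 50% were within 1.5-fold. The falls were 6 without IL-2 array 1 and 7 without IL-2 array 2. Peli1, a ubiquitin ligase that damps T cell activation, fell from 12.25 and 12.05 to 11.19 and 11.35 (-0.88 ± 0.12; limma adjusted p = 0.000395), and so did Socs3. Cdkn1b, the Cdk inhibitor p27, read 11.32 and 11.37 and then 11.39 and 11.45, with an interval of -0.18 to 0.34. Rbl2, the pocket protein p130, and Tsc2, a brake on mTOR, had intervals of -0.28 to 0.16 and -0.31 to 0.14. Transcripts of Cdkn1b, Rbl2 and Tsc2 stood within 1.5-fold of the naive level beside 50 raised mitosis genes, while 11 other genes of the list fell.

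Genes of the receptor machinery changed by small amounts, with more falls than rises. Of 29 tested genes of the T cell receptor complex and proximal signalling (32 listed), 13 fell against 19.9% of all tested genes, 1 rose and 15 were not called, with a median of -0.25. The intervals of 18 lay within 1.5-fold, against 50% of all tested genes, and 1 gene was called with a change of at least 2-fold. The falls were 6 without either IL-2 array or with arrays centred on their median. Zap70, the kinase recruited to the receptor, read 10.44 and 10.56 and then 10.36 and 10.54, with an interval of -0.30 to 0.21. Lcp2, the adaptor SLP-76, and Cd5, an inhibitory coreceptor, had intervals of -0.39 to 0.13 and -0.14 to 0.31.

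Trat1, an adaptor that stabilises the receptor complex, was the exception in size: it read 8.70 and 8.96 on the naive and 5.89 and 5.26 on the IL-2 arrays (-3.26 ± 0.20; limma adjusted p = 3.49e-06). In IL-12 cells it read 8.82 and 9.09, above the IL-2 level by 3.38 ± 0.20 (limma adjusted p = 2.34e-05). Smaller falls were those of Itpkb, an inositol kinase, from 11.38 and 11.07 to 10.33 and 10.44 (-0.84 ± 0.13; limma adjusted p = 0.000778), Grap2, the adaptor Gads (-0.63 ± 0.11; limma adjusted p = 0.0018), and Rasgrp1, which activates Ras (-0.47 ± 0.10; limma adjusted p = 0.0046). Gimap4, of a GTPase family that supports lymphocyte survival, read 12.31 and 12.31 and then 12.30 and 12.32, with an interval of -0.23 to 0.23. Of the 8 Gimap genes 5 were not called, against 6052 of 11147 tested genes.

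Most reference genes kept their signal, but not all. Among the 13 tested, 10 were within 1.5-fold and 2 rose by at least 2-fold. Of all tested genes, 50% were within 1.5-fold and 25.8% rose. Actb, beta actin, read 14.13 and 14.13 on the naive and 14.12 and 14.14 on the IL-2 arrays, B2m 13.50 and 13.57 and then 13.51 and 13.53, and the ribosomal protein gene Rplp0 13.79 and 13.85 and then 13.76 and 13.79. Of 13 tested reference genes (17 listed) 3 rose, Hprt, Pgk1 and Tfrc, and 0 fell, while 0 fell and 6 rose with arrays centred on their median; without naive array 2, 1 fell. Genes within 1.5-fold were found at all levels, in 1350 of the 2787 brightest genes and 1691 of the 2787 dimmest. The 15 brightest genes within 1.5-fold included Eef1a1, a translation factor, at 14.19 and 14.26 and then 14.20 and 14.16, and the ribosomal protein gene Rpl28, at 13.55 and 13.61 and then 13.66 and 13.60.

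**Figure D5:**
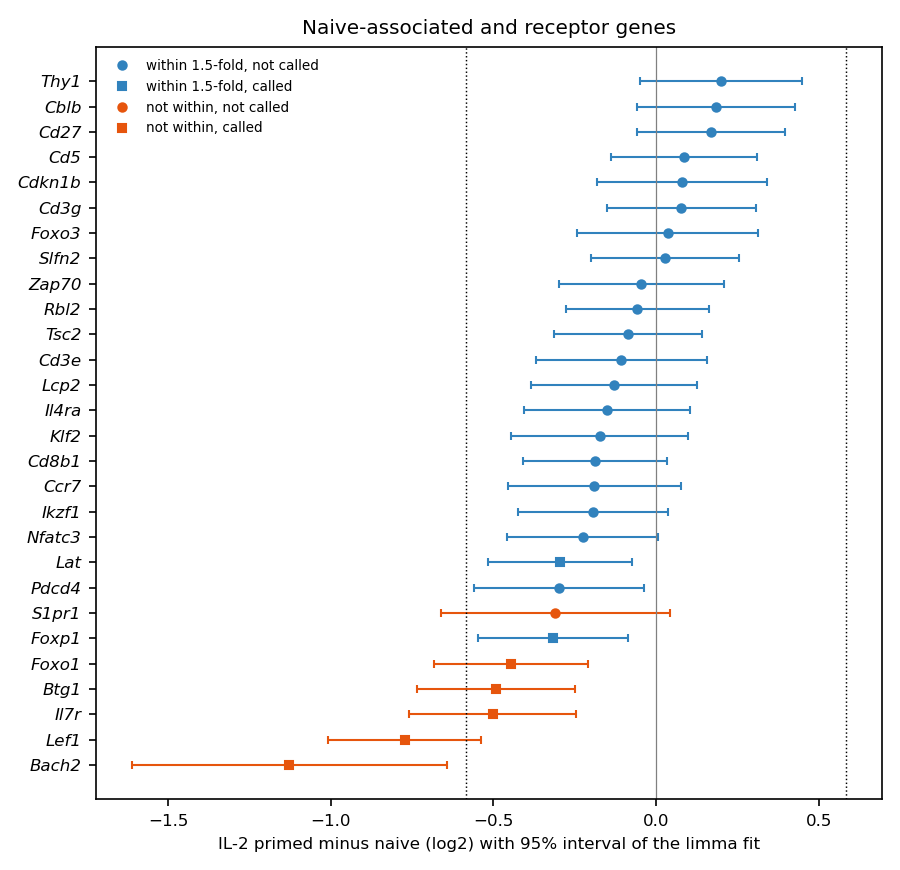
IL-2 minus naive log2 differences of 28 genes of naive T cells and receptor signalling, with 95% intervals of the limma fit; dotted lines mark 1.5-fold in either direction. Ccr7, Cd27, Klf2, Foxo3, Cdkn1b, Slfn2, Cd3e and Zap70 lie wholly between the lines.

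MicroRNA genes were read after their values had been seen. The mature sequences of 3 of them are given from RefSeq on GRCm38.p6, 5′ to 3′, with the seed (bases 2 to 8) in capitals; the seeds differ.
miR-342-3p chr12:108658680-108658702, plus strand: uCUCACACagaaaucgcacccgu
miR-505-3p chrX:60394416-60394437, minus strand: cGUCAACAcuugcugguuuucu
miR-155-5p chr16:84714143-84714165, plus strand: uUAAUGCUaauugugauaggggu
Mir342 read 10.62 and 9.33 on the naive and 6.99 and 7.65 on the IL-2 arrays (-2.66 ± 0.37; limma adjusted p = 0.000516). Mir505 read 10.39 and 9.28 and then 8.49 and 8.40 (-1.39 ± 0.28; limma adjusted p = 0.00415). Mir155, a microRNA induced by T cell activation, read 6.54 and 6.30 and then 7.15 and 6.92 (0.62 ± 0.13; limma adjusted p = 0.00445). The call of Mir155 was lost without IL-2 array 1 (limma adjusted p = 0.0515). Groups did not overlap in these 3 genes, but the naive arrays lay more than 1 apart for the first and second, and Mir342 fell by 2.01 without naive array 1 and by 3.30 without naive array 2. Whether these probe sets read the primary transcript or the hairpin is not stated in the sources used here. Of 291 microRNA genes with a probe set 70 were tested: 2 rose, 12 fell and 56 were not called, with a median of -0.14. Over all tested genes 25.8% rose and 19.9% fell.

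IL-2 and IL-12 cells, which differ by the cytokine given, were also set against each other. Between these primed groups 2321 genes were called (20.8%), a count that was 3533 without naive array 1 or naive array 2, 954 and 737 without IL-2 array 1 and 2, and 1219 and 1031 without IL-12 array 1 and 2. Among homing and survival receptors 14 of 18 differed, 5 higher and 9 lower in IL-12 cells. Of the IL-2 receptor and JAK-STAT5 genes 15 of 27 differed, 9 higher and 6 lower, and of the interferon-stimulated genes 16 of 32, 2 higher and 14 lower. Usp18, which silences the interferon receptor, was 1 of the 2 higher ones: it read 10.53 and 10.90 in naive, 6.36 and 6.29 in IL-2 and 10.84 and 10.03 in IL-12 cells. Naive and IL-12 arrays overlapped for this gene, and both lay above the IL-2 arrays.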

How the data were processed

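Expression was measured on 6 Affymetrix arrays, 2 each of naive, IL-2 and IL-12 cells, grouped by their labels. The authors deposited log2 values normalised by RMA, per the submitters' processing notes; the genome build is not given in the sources used here. The table held 35556 probe sets: 21789 had 1 gene symbol, 1621 several and 12146 none. Of 19938 named genes, each represented by its probe set of highest mean, 11147 exceeded the 50th percentile of all values (6.83) on at least 2 of 6 arrays and were tested; 794 of them had more than 1 probe set. limma 3.58.1 in R 4.3.3 fitted the 3 groups (lmFit, eBayes; 3 residual and 5.62 prior degrees of freedom), with Benjamini-Hochberg adjustment over all tested genes; the scripts were tested on simulated data. The text names some of the genes with the largest changes, some bright genes within 1.5-fold and some members of functional lists. Members and lists were chosen with earlier results of these data known; the macrophage and microRNA lists were added after values were seen. Alternatives covered the filter, probe set choice, centring, quantile normalisation, the moderation, a replicate block and leaving out each array. The arrays' number limits precision: the median standard error was 0.118.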

Additional observations from a re-analysis of the deposited data

Results flagged for a closer look

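Genes whose change against naive cells had opposite directions in IL-2 and IL-12 cells were singled out where the difference between the primed groups passed the limma test. Cd160, a receptor for HVEM, rose in IL-2 cells and fell in IL-12 cells, from 8.25 and 8.54 in naive to 9.11 and 9.04 with IL-2 and 7.81 and 7.95 with IL-12, an IL-12 minus IL-2 difference of -1.19 (limma adjusted p = 0.000379). Gata3, a regulator of type 2 cells, read 9.84 and 9.98, then 10.88 and 10.58, and 8.97 and 8.76 with IL-12, a difference of -1.86 (limma adjusted p = 5.76e-05). Id3 read 7.194 and 7.195 with IL-12, a difference of -1.95 (limma adjusted p = 6.17e-05), and Itgb3, an integrin chain, differed by -1.57 (limma adjusted p = 2.57e-05).

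The reverse order, below naive with IL-2 and above it with IL-12, held for 4 of the genes named here. Irf8, an interferon-regulated transcription factor, read 8.66 and 8.86 in naive, 7.94 and 7.90 in IL-2 and 10.43 and 10.26 in IL-12 cells, a difference of 2.43 (limma adjusted p = 8.8e-06). Gbp5 and Gbp7, guanylate-binding GTPases, differed by 1.99 (limma adjusted p = 2.34e-05) and 1.57 (limma adjusted p = 8.37e-05). Klrg1, a receptor of terminal effector cells, differed by 1.94 (limma adjusted p = 0.000247). Both directions against naive were called in each of these 8 genes, and IL-2 and IL-12 arrays share the naive arrays in those comparisons.

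Probe sets left without a single gene symbol carried calls as well. Of those without a symbol, 245 of 5727 tested (4.28%) passed the limma threshold, 129 with a rise and 116 with a fall in IL-2 cells. Of those with several symbols, 239 of 1073 (22.3%) passed, 132 with a rise and 107 with a fall.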

How the results depend on the processing

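Of 165 called genes named here, 159 kept their direction and call in every refit that tested them, and Bcl2, Cd8a, Gzmm, Klra3, Mir155 and Smc4 kept their direction but lost the call in some; the filter at the 75th percentile left 142 of the 165 to test. Against a 1.5-fold change, 113 of the 165 were called, a count added after seeing the data, and the 5095 called genes became 1152; with 1 array left out and the usual test, the called genes lay between 3341 and 5786. Rises ranged from 1977 to 3427 and falls from 1364 to 2359 with 1 array left out, and with the filter at the 75th percentile 1378 genes fell. Genes within 1.5-fold numbered 13591 with no filter and 2761 with the filter at the 75th percentile, since more or fewer genes were tested; a tighter bound gave 1309, a bound of 2-fold 8934, and leaving out 1 array 4021 to 5923. Genes low in naive and present in IL-2 cells numbered 0 in the main setting, 1 with arrays centred on their median, with quantile normalisation or with the highest single Y-linked value as the low level, and 0 to 1 with 1 array left out; the reverse set numbered 1 with the most variable probe set of a gene and 0 to 3 with 1 array left out. The 25th percentile as the low level, chosen after seeing the data, gave 18 each way. IL-12 against IL-2 calls lay between 737 and 3533 with 1 array left out; the cause was not tested. The labels do not say whether equal replicate numbers pair the arrays. Over all tested genes the correlation of deviations was 0.015 between naive and IL-2, -0.022 between naive and IL-12, and 0.153 between IL-2 and IL-12 arrays. Such a value cannot decide pairing for a subset of genes, and Jun read higher on array 1 than on array 2 in each group. A replicate block gave 5128 called genes and moved no count over all tested genes by over 1.5 times. Within lists, it moved IL-12 against IL-2 calls from 1 to 5 for immediate early genes, 5 to 9 for the proteasome, 1 to 3 for natural killer markers and 1 to 2 for the Ifitm family, and rises from 0 to 1 for interferon-stimulated genes; immediate early rises were 11 in place of 8. Signal near the Y-linked level limits dim genes.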

Other observations

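The BCL2 family, which sets the threshold for mitochondrial death, had 4 rises, 3 falls and 5 genes not called among 12 tested (15 listed), shares near those of all tested genes (25.8% rose and 19.9% fell). Bcl2l1, which encodes the protective Bcl-xL, rose from 7.99 and 8.22 to 8.67 and 8.69 (0.57 ± 0.12; limma adjusted p = 0.00505), and so did Bak1, a pore-forming effector of death, from 9.69 and 9.60 to 10.38 and 10.27 (0.68 ± 0.10; limma adjusted p = 0.000843), and Pmaip1, which encodes Noxa (0.68 ± 0.12; limma adjusted p = 0.00178). Bcl2 itself fell from 11.82 and 11.87 to 10.96 and 11.26 (-0.73 ± 0.16; limma adjusted p = 0.00568), and 0 members fell without IL-2 array 1, where Bcl2 had a limma adjusted p of 0.0579. Bcl2l11, which encodes Bim, had an interval of -0.03 to 0.53.

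Lysosome and autophagy genes had 5 rises, 3 falls and 14 genes not called of 22 tested (24 listed), against 25.8% of all tested genes that rose and 19.9% that fell; 12 were within 1.5-fold, against 50%. Gabarapl1, a protein of the autophagosome membrane, rose most, from 7.71 and 8.15 to 10.34 and 10.43 (2.45 ± 0.15; limma adjusted p = 2.7e-06), followed by Gla, a lysosomal galactosidase (1.51 ± 0.18; limma adjusted p = 0.000185). Ctss, a cathepsin of antigen-presenting cells, fell from 10.56 and 11.22 to 9.56 and 9.71 (-1.26 ± 0.19; limma adjusted p = 0.000813); macrophage and B cell marker means fell on the same arrays, and their part was not tested. The rises numbered 10 without naive array 2; the falls numbered 6 without naive array 1 1 without IL-2 array 2, 7 with arrays centred on the median of the tested genes and 1 with arrays centred on their median.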
